A study of Mus musculus with 10 samples.

Results

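Genes of intestinal sterol absorption and efflux were followed in RNA-seq libraries of mouse small intestine: *Npc1l1*, *Abcg5*, *Abcg8*, *Scarb1*, *Soat2*, *Abca1*, *Cd36* and *Nr1h3*. They were chosen by name and are 8 of the 35275 gene IDs in the count tables. Each was found by its Ensembl ID, and all 8 had enough reads to be tested.

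Cholesterol of the diet and of bile enters the enterocyte, the absorptive cell of the villus, at its brush border, where NPC1L1 takes it up. ABCG5 and ABCG8 join into a single transporter that returns sterols, plant sterols above all, to the gut lumen, while SOAT2 esterifies the cholesterol that stays for packing into chylomicrons. ABCA1 exports free cholesterol across the basolateral side to apolipoprotein A-I, SCARB1 and CD36 are scavenger receptors that bind lipoproteins and fatty acids, and NR1H3 is LXR-alpha, the oxysterol receptor that drives transcription of *Abca1*, *Abcg5* and *Abcg8*.

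The libraries came from sections of proximal small intestine of 5 KO and 5 WT mice, with 1 library from each mouse. KO mice are labelled as knockouts and described by the study as deleted for *Zip14* (*Slc39a14*), a zinc and metal ion transporter. The study describes them as whole body knockouts and the WT mice as the same strain, both bred from heterozygous parents on a commercial diet, whereas the deposited series carries enterocyte deletion in its title, and the counts do not tell which was used. The labels give an age of 8 to 10 weeks for every mouse, and neither sex nor litter is given per mouse.

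Total counts were between 16729787 and 20819678 in WT libraries and between 17118742 and 19414828 in KO libraries. *Slc39a14* itself was lower in all 5 KO libraries, at 78.49 to 160.1 CPM against 190.8 to 356.8 CPM in WT (CPM is the count scaled to library size with TMM factors). Its mean in KO was 39.3% of that in WT, over the whole gene, and the deleted part was not examined separately. The libraries of the 2 groups also stood apart in what the tissue held. The mean log2 CPM of 8 ileum markers was 7.86 to 8.59 in KO and 3.79 to 4.59 in WT, while that of 8 markers of proximal small intestine was 1.30 to 3.73 in KO and 5.22 to 6.55 in WT. *Fabp6*, which binds bile acids in ileal enterocytes, had 5510 ± 2860 CPM in KO and 0.779 ± 0.607 CPM in WT (SD, n = 5 each), and *Lct*, the lactase of the proximal gut, had 198 ± 307 and 3540 ± 181 CPM. The mean of 10 smooth muscle markers was 8.06 to 9.47 in KO and 6.68 to 7.44 in WT, that of 10 enterocyte markers 9.81 to 10.67 and 11.09 to 11.57, and that of 10 markers of epithelium in general 9.89 to 10.26 and 9.42 to 9.70. None of these 5 scores overlapped between the groups (exact permutation test of each, 2-sided, p = 0.00794, the smallest that 5 mice against 5 can give). The marker lists were chosen with earlier results of these data known, so these p-values are descriptive, and they are not adjusted. By edgeR's quasi-likelihood test 6 of the 8 ileum markers were higher and 1 lower, and 9 of 10 smooth muscle markers were higher. Of 7 tested proximal markers 3 were lower and 1 higher (same test). *Lct* was not among these 3, as it missed the threshold (adjusted p = 0.0632, same test). Its KO libraries were scattered, from 0.315 to 702 CPM, though all lay below the WT libraries (3360 to 3780 CPM). Of the lists for other cells, 1 of 10 macrophage markers and 2 of 8 blood endothelium markers were lower, 1 endothelium marker and 5 of 8 adipocyte markers were higher, and neither of the 2 tested pancreatic acinar markers was called. The small counts rested on single mice: the 5 adipocyte markers became 0 without WT replicate 2, 1 without WT replicate 3, WT replicate 5 or KO replicate 4, 2 without WT replicate 1 or KO replicate 2 and 3 without KO replicate 3, and the 3 lower proximal markers became 5 without KO replicate 1. The counts of macrophage and endothelium markers stayed between 0 and 2 in each direction with 1 mouse left out. The KO libraries thus went against the label of proximal tissue in these markers, which touches every comparison of KO with WT below. A difference in where the sections were cut and an effect of the genotype cannot be told apart here, nor can fewer cells of a type and less RNA per cell.

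All 8 genes had a lower fitted level in KO than in WT. By edgeR's quasi-likelihood test with Benjamini-Hochberg adjustment over all genes tested, 6 of them were lower at an adjusted p under 0.05 (*Npc1l1*, *Abcg5*, *Abcg8*, *Soat2*, *Abca1* and *Nr1h3*), and *Scarb1* and *Cd36* did not pass. The same test called 13.9% of all 15610 tested genes lower in KO and 16.0% higher, or 29.9% in either direction. For 5 of the 8, every KO library lay below every WT library. Of all tested genes 10.8% were lower in this way and 10.2% higher, or 21.1% in either direction. The median log2 fold change was -1.07 over the 8 genes and 0.03 over all tested genes, and 6 of the 8 were at -1 or below, where 5.67% of all tested genes were. The mean in KO was between 31.0% (*Abca1*) and 70.7% (*Nr1h3*) of the mean in WT.

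**Figure D1:**
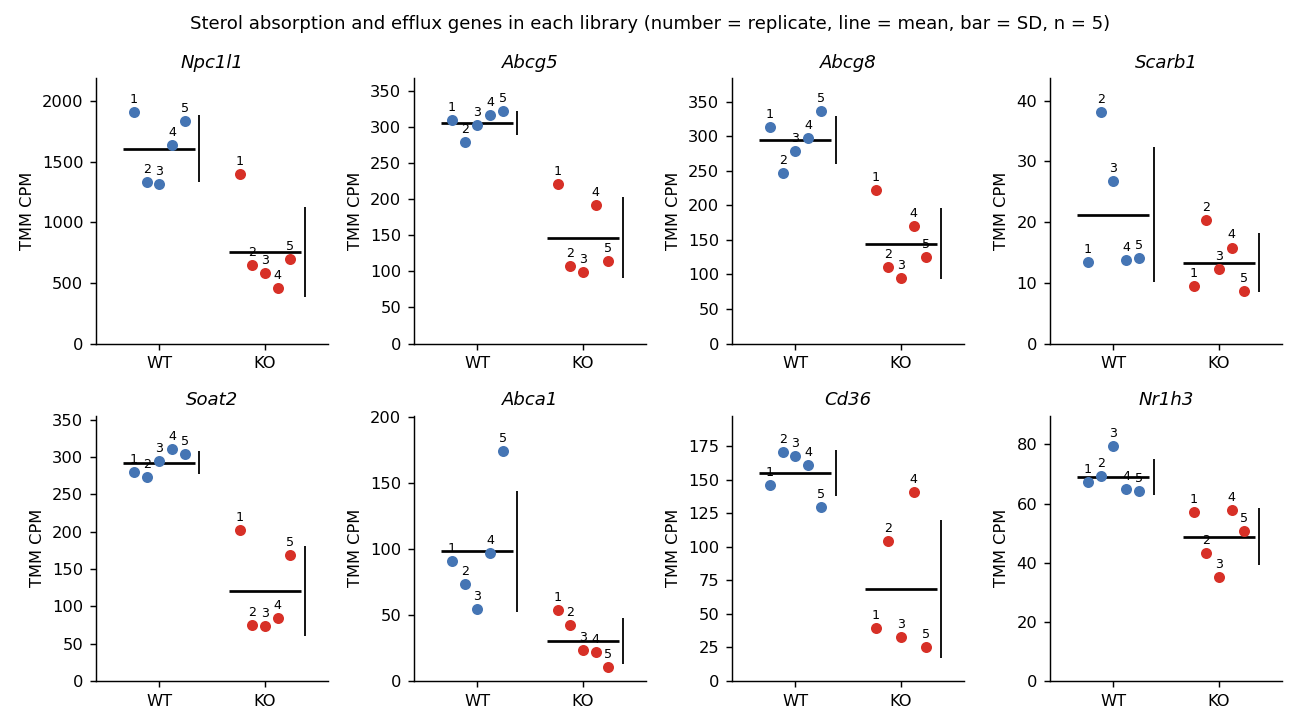
TMM CPM of the 8 genes in each library (blue WT, red KO, number = replicate, line = mean, bar = SD, n = 5 each), each panel on its own linear axis from 0. *Abcg5*, *Abcg8*, *Soat2*, *Abca1* and *Nr1h3* do not overlap between the groups, whereas KO replicate 1 reaches the WT range for *Npc1l1* (1402 CPM) and KO replicate 4 for *Cd36* (140.5 CPM).

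The uptake genes were examined first, beginning with *Npc1l1*, which encodes the brush border transporter that ezetimibe blocks. *Npc1l1* (ENSMUSG00000020447, chr11:6211013-6230143, minus strand, GRCm38) had 1912, 1333, 1313, 1639 and 1839 CPM in the 5 WT libraries. In KO libraries it had 1402, 644.1, 585.0, 457.4 and 696.8 CPM. KO replicate 1 lay within the WT range and the other 4 KO libraries lay below all WT libraries. The means were 1607 ± 278 CPM in WT and 757.1 ± 371 CPM in KO (SD, n = 5 each). *Npc1l1* fell by 1.09 on the log2 scale in KO (standard error 0.28, 95% interval from -1.70 to -0.47, adjusted p = 0.0150, edgeR's quasi-likelihood test). For its log2 CPM the exact permutation test gave a 2-sided p of 0.0238.

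*Scarb1* (ENSMUSG00000037936, chr5:125277087-125341094, minus strand), the HDL receptor SR-BI, was the least abundant of the 8. It had 13.39, 38.21, 26.83, 13.74 and 14.01 CPM in WT and 9.52, 20.35, 12.25, 15.82 and 8.709 CPM in KO. WT replicates 2 and 3 stood above the other WT libraries, 3 KO libraries lay below all WT libraries, and KO replicates 2 and 4 fell among the WT values. The spread within WT was wide, at 52.1% of the mean. The log2 fold change of -0.67 had a 95% interval from -1.42 to 0.08, and no change beyond the spread between mice was detected (adjusted p = 0.158, edgeR's quasi-likelihood test, and p = 0.175, exact permutation test). With 1 mouse left out it ranged from -0.88 to -0.35, the latter without WT replicate 2.

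*Cd36* (ENSMUSG00000002944, chr5:17781690-17888801, minus strand), the fatty acid translocase, was even among WT mice and scattered among KO mice. The WT libraries had 145.8, 170.4, 167.4, 160.7 and 129.3 CPM. The KO libraries had 39.38, 104.3, 32.76, 140.5 and 24.92 CPM. KO replicate 4 lay within the WT range and the other 4 lay below all WT libraries, and the SD was 74.9% of the mean in KO against 11.0% in WT. The log2 fold change was -1.18 (standard error 0.43, 95% interval from -2.12 to -0.24), and with an adjusted p of 0.0578 it missed the threshold of edgeR's quasi-likelihood test. It passed without KO replicate 4 (-1.62, adjusted p = 0.0118, same test), and without KO replicate 2 (-1.39, adjusted p = 0.0469, same test).

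*Cd36* is also a gene of capillary endothelium and of fat cells. In the KO mice its order followed those tissues in part: KO replicates 2 and 4, with the most *Cd36*, had adipocyte scores (mean log2 CPM of 8 markers) of 6.41 and 6.79, and the other KO libraries had 3.77 to 5.18. With the group means removed, the log2 CPM of *Cd36* had a Pearson's r of 0.89 with the score of 8 blood endothelium markers and of 0.74 with the adipocyte score over the 10 libraries, and one of -0.66 with the epithelium score. These values rest mostly on the KO libraries, as the SD of *Cd36* was 74.9% of the mean in KO and 11.0% in WT. The endothelium score itself overlapped between the groups, from 3.78 to 3.97 in WT and from 3.50 to 4.02 in KO, as did the adipocyte score, from 2.38 to 4.96 in WT. The part of these tissues in the *Cd36* values was not tested.

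The efflux genes were then examined. *Abcg5* (ENSMUSG00000040505, chr17:84658234-84683011, minus strand) had 308.9, 278.9, 302.0, 316.4 and 321.3 CPM in WT and 220.6, 107.0, 98.77, 192.1 and 114.7 CPM in KO. WT mice were tightly grouped, with an SD of 5.43% of the mean, and all 5 KO libraries lay below them. The mean was 305.5 ± 16.6 CPM in WT and 146.6 ± 55.7 CPM in KO (SD, n = 5 each). *Abcg5* fell by 1.06 on the log2 scale (standard error 0.22, 95% interval from -1.54 to -0.58, adjusted p = 0.00572, edgeR's quasi-likelihood test).

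*Abcg8* (ENSMUSG00000024254, chr17:84676302-84700333, plus strand), its partner in the transporter, had nearly the same values. It had 313.2, 246.8, 278.9, 297.8 and 336.8 CPM in WT and 222.9, 110.7, 95.10, 169.6 and 126.0 CPM in KO. Again no KO library reached the WT range, and KO replicates 1 and 4 were the highest of the KO libraries for both genes. *Abcg8* fell by 1.02 on the log2 scale (standard error 0.21, 95% interval from -1.49 to -0.56, adjusted p = 0.00586, edgeR's quasi-likelihood test).

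The log2 ratio of *Abcg5* to *Abcg8* counts was 0.06 ± 0.10 in WT and 0.01 ± 0.12 in KO (SD, n = 5 each), a difference of -0.05 (exact permutation test, p = 0.468, adjusted p = 0.656 over 7 ratios of genes). The log2 CPM of the pair had a Pearson's r of 0.99 over the 10 libraries and of 0.96 with the group means removed, the closest of the 28 pairs that the 8 genes form. The 2 genes share 82 exon bases on opposite strands, 3.02% of the exon bases of *Abcg5* and 2.19% of those of *Abcg8*, and whether the reads were counted by strand is not given in the sources used here.

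*Abcg5* and *Abcg8* lie head to head. In RefSeq (GRCm38.p6) *Abcg5* starts at chr17:84683011 and one *Abcg8* transcript at chr17:84683121, with 109 bases between these start sites. A second *Abcg8* start, at chr17:84676302, lies inside *Abcg5* and is the gene start given above, and the counts do not tell which start was used. A window of 250 bases before and 50 bases after the start was read for the 6 of the 8 genes that the table of promoters holds (*Scarb1* and *Soat2* had none), in 8 windows. Both the *Abcg5* window and the *Abcg8* window at this start held the GATA letters AGATAA 3 times, at the same 3 places. The matches are shown because *Gata4*, which marks proximal epithelium, had 189 ± 24.4 CPM in WT and 16.1 ± 24.8 CPM in KO (SD, n = 5 each). On the *Abcg5* strand, with the match in capitals on either strand, they read as follows.
chr17:84683049-84683072: ctattgtcgAGATAAggacactct
chr17:84683019-84683042: aggtacatcAGATAAtggcatcgt
chr17:84682985-84683008: ggtgaactgTTATCTcacgaggat

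The first bases of the matches lie at positions -52, -22 and 12 from the *Abcg5* start site, the last of them downstream of it. AGATAA occurred on either strand in 11.2% of all 32851 windows of this length. The TATA letters TATAAA (13.6% of all windows) were found in the *Abcg5*, *Abcg8* and *Abca1* windows. The matches of *Abcg5* and *Abcg8* are the same bases, read on opposite strands. For LXR, the full direct repeat, AGGTCA followed after any 4 bases by AGGTCA (0.0152%), was in no window of the 6 genes, and a looser form, GGTNA followed after any 5 bases by GGTCA (0.207%), was in that of *Abca1*, which also held the E-box CACGTG (7.15%). The single nuclear receptor repeat AGGTCA (16.3%) was in the *Npc1l1* and *Cd36* windows, the single HNF1 arm GTTAAT (7.10%) in that of *Npc1l1* and the HNF4 core CAAAGT (14.4%) in that of *Cd36*. No window of the 6 genes held CAAAGTCCA (0.475%), CAAGGTCA (1.56%), TCACCCCAC (0.551%), its core CACCCCAC (2.87%), the full HNF1 site, GTTAAT followed after any 1 base by ATTAAC (0.00913%), or TTTATTG (4.60%). These 14 strings were searched on both strands, some contain others (AGGTCA lies within the direct repeat and CAAAGT within CAAAGTCCA), and a match or its absence says nothing about binding. The looser LXR element of *Abca1* and the single sites of *Npc1l1*, each on the strand of its gene with the match in capitals, read as follows.
*Abca1*, chr4:53159943-53159966: cgttTGACCGGTAGTAACCccggc
*Npc1l1*, nuclear receptor repeat, chr11:6230331-6230354: ctaggaagtTGACCTcagaaggag
*Npc1l1*, HNF1 arm, chr11:6230271-6230294: aaataaattATTAACcagtacggc

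*Abca1* (ENSMUSG00000015243, chr4:53030787-53159895, minus strand), mutated in Tangier disease, had the lowest log2 fold change of the 8. It had 91.18, 73.87, 54.83, 97.16 and 174.7 CPM in WT and 54.02, 42.38, 23.53, 22.30 and 10.18 CPM in KO. The groups did not overlap, though KO replicate 1 came within 1 CPM of the lowest WT library, and both groups were wide, with an SD of 46.5% of the mean in WT and 57.4% in KO. *Abca1* fell by 1.69 on the log2 scale (standard error 0.43, 95% interval from -2.63 to -0.75, adjusted p = 0.0138, edgeR's quasi-likelihood test). Macrophages also express *Abca1*, and the score of 10 macrophage markers overlapped between the groups, from 4.39 to 4.75 in WT and from 4.06 to 4.80 in KO (exact permutation test, p = 0.365). With group means removed, *Abca1* had a Pearson's r over the 10 libraries of 0.10 with that score, 0.54 with the enterocyte score, 0.46 with the proximal score and 0.44 with the blood endothelium score. The part of these cells in the *Abca1* values was not tested.

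**Figure D2:**
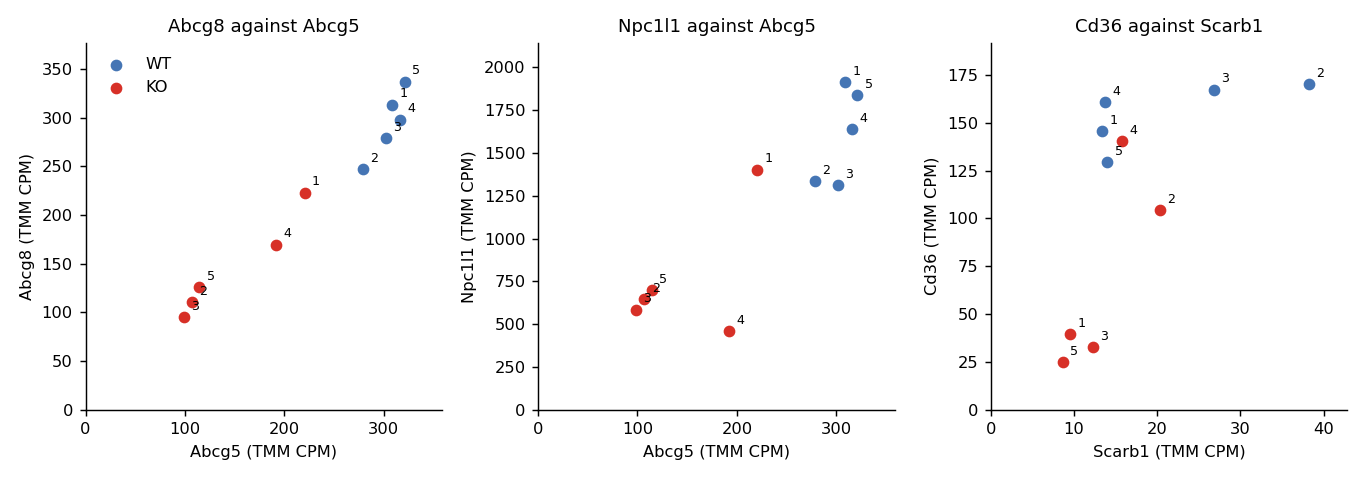
CPM of *Abcg8* against *Abcg5*, *Npc1l1* against *Abcg5* and *Cd36* against *Scarb1* in each library (blue WT, red KO, number = replicate), on linear axes from 0. The first pair falls along a single line through both groups, whereas KO replicate 4 leaves the line of *Npc1l1* and *Abcg5*, with 457.4 CPM of *Npc1l1* at 192.1 CPM of *Abcg5*.

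The balance of uptake and efflux genes was examined by ratios of their RNA within a library, and no transport was measured. The log2 ratio of *Npc1l1* to *Abcg5* counts was 2.63, 2.26, 2.12, 2.37 and 2.52 in WT and 2.67, 2.59, 2.56, 1.25 and 2.60 in KO. Apart from KO replicate 4, the KO libraries lay above 4 of the 5 WT libraries. The means differed by -0.04 (exact permutation test, p = 0.976, adjusted p = 0.976 over the 7 ratios), and without KO replicate 4 by 0.23 (exact permutation test, adjusted p = 0.156 over the 7 ratios). The ratio of *Npc1l1* to *Abcg8* behaved likewise, with 1.43 in KO replicate 4 and 2.47 to 2.65 in the other KO libraries. For the genes of basolateral against apical efflux, the log2 ratio of *Abca1* to *Abcg5* was -1.74 ± 0.57 in WT and -2.40 ± 0.87 in KO (SD, n = 5 each). The groups overlapped, with a difference of -0.66 (exact permutation test, p = 0.198, adjusted p = 0.347). With 1 mouse left out this difference ranged from -0.93 to -0.39.

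For esterification, the RNA of *Soat2* (ENSMUSG00000023045, chr15:102150526-102163469, plus strand) was examined. *Soat2* had 279.4, 273.7, 295.1, 310.5 and 304.3 CPM in WT and 201.6, 75.17, 73.83, 83.78 and 168.1 CPM in KO. WT mice varied by 5.39% of their mean, all KO libraries lay below them, and within KO replicates 1 and 5 stood above the other 3. *Soat2* fell by 1.28 on the log2 scale (standard error 0.28, 95% interval from -1.90 to -0.66, adjusted p = 0.00753, edgeR's quasi-likelihood test). *Soat1*, the isoenzyme found in most cell types, had 45.6 ± 6.49 CPM in WT and 33.2 ± 9.10 CPM in KO (SD, n = 5 each), with a log2 fold change of -0.46 that missed the threshold (adjusted p = 0.0734, edgeR's quasi-likelihood test). Between the isoenzymes, the log2 ratio of *Soat2* to *Soat1* was 2.43 to 2.99 in WT and ranged from 0.67 to 2.70 in KO, a difference of -0.93 (exact permutation test, p = 0.0794, adjusted p = 0.185 over the 7 ratios).

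*Nr1h3* (ENSMUSG00000002108, chr2:91184061-91202834, minus strand), the LXR-alpha gene, had the log2 fold change nearest to 0. It had 67.31, 69.34, 79.33, 64.79 and 64.16 CPM in WT and 57.29, 43.12, 35.14, 57.71 and 50.68 CPM in KO. The 5 KO libraries lay below the 5 WT libraries. *Nr1h3* fell by 0.50 on the log2 scale (standard error 0.14, 95% interval from -0.80 to -0.20, adjusted p = 0.0190, edgeR's quasi-likelihood test). *Nr1h2*, which encodes LXR-beta and is present in most cells, had 114 ± 7.37 CPM in WT and 109 ± 12.1 CPM in KO (SD, n = 5 each). It was not called, at a log2 fold change of -0.06 (adjusted p = 0.615, edgeR's quasi-likelihood test). Between the LXR forms, the log2 ratio of *Nr1h3* to *Nr1h2* was -0.72 ± 0.17 in WT and -1.17 ± 0.27 in KO (SD, n = 5 each), with 4 of 5 KO libraries below all WT libraries. That difference of -0.45 had an exact permutation p of 0.0159, and an adjusted p of 0.111 over the 7 ratios (exact permutation test). For the scavenger receptors, the log2 ratio of *Cd36* to *Scarb1* was 2.99 ± 0.58 in WT and 2.09 ± 0.70 in KO (SD, n = 5 each), with overlap (exact permutation test, p = 0.0556, adjusted p = 0.185).

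The order of the levels was compared per length, as CPM per kilobase of exon. In WT mice *Npc1l1* came first with 360 ± 62.3, followed by *Soat2* (132 ± 7.13), *Abcg5* (113 ± 6.12), *Abcg8* (78.6 ± 9.11), *Cd36* (43.1 ± 4.76), *Nr1h3* (27.4 ± 2.44), *Abca1* (9.49 ± 4.41) and *Scarb1* (2.50 ± 1.30; SD, n = 5 each). Each gene lay above the next in this order without overlap between its 5 WT libraries and those of the next. Per kilobase of coding length this held for 5 of the 7 steps, since *Abcg5* (156 ± 8.48) overlapped with *Abcg8* (146 ± 16.9) and *Abca1* (14.5 ± 6.74) with *Scarb1* (12.1 ± 6.31). In KO mice *Npc1l1* had 169 ± 83.1 CPM per kilobase and was again first without overlap. *Soat2* (54.4 ± 27.1) and *Abcg5* (54.1 ± 20.5) were level, *Nr1h3* (19.4 ± 3.84) and *Cd36* (19.0 ± 14.3) likewise, and 3 of the 7 steps between neighbours were without overlap. By coding length only the step from *Nr1h3* (36.5 ± 7.24) to *Scarb1* (7.60 ± 2.74) was, *Npc1l1* (189 ± 92.9) overlapped with *Soat2*, *Cd36* (48.3 ± 36.2) came above *Nr1h3*, and *Abca1* (4.49 ± 2.58) came last. The library with the highest KO value was replicate 1 for 5 genes (*Npc1l1*, *Abcg5*, *Abcg8*, *Soat2* and *Abca1*), replicate 4 for *Cd36* and *Nr1h3* and replicate 2 for *Scarb1*.

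Since sections of gut wall hold muscle and other cells, each gene was also set against the epithelium in the same library, as its log2 CPM minus the mean log2 CPM of 10 epithelium markers (*Krt8*, *Vil1*, *Epcam*, *Krt19* and 6 others). By this measure the difference of KO from WT was between -2.25 (*Abca1*) and -1.54 (*Abcg8*) on the log2 scale for the transporters, *Soat2* and *Cd36*, -0.97 for *Nr1h3* and -1.05 for *Scarb1*. No KO library overlapped with WT for 7 of the genes (exact permutation test, p = 0.00794 for each), while *Scarb1* overlapped (exact permutation test, p = 0.0714). Because the epithelium score was higher in KO, this scale moved every gene by -0.45: the median difference of all tested genes was -0.44, and 35.8% of them were lower without overlap and 1.83% higher. Of the 10 epithelium markers, 7 were higher in KO and none lower by edgeR's quasi-likelihood test (2 were lower without KO replicate 1), and their summed level was 11100 to 13200 CPM in WT and 13600 to 19000 CPM in KO.

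Each gene was set against enterocytes in the same way. The 10 enterocyte markers (*Anpep*, *Apoa1*, *Fabp2*, *Sis* and 6 others) summed to 30400 to 38000 CPM in WT and 15700 to 33100 CPM in KO, and 6 of them were lower in KO by edgeR's quasi-likelihood test. Relative to their mean log2 CPM, *Npc1l1* differed by 0.12 (p = 0.571), *Abcg5* by 0.16 (p = 0.563), *Abcg8* by 0.21 (p = 0.389), *Soat2* by -0.12 (p = 0.690), *Cd36* by -0.20 (p = 0.706), *Abca1* by -0.50 (p = 0.325) and *Scarb1* by 0.70 (p = 0.135), all by the exact permutation test. Those 7 genes overlapped between the groups, and *Nr1h3*, with a difference of 0.78, did not (exact permutation test, p = 0.00794). This scale moved every gene by 1.30, with a median difference of 1.31 over all tested genes, of which 74.7% were higher without overlap and 0.871% lower, so that all 8 genes, *Nr1h3* included, had differences below that median. These 8 p-values are not adjusted for the number of genes compared. The part of enterocyte content, muscle content or position along the gut in the lower levels was not tested beyond these values.

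**Figure D3:**
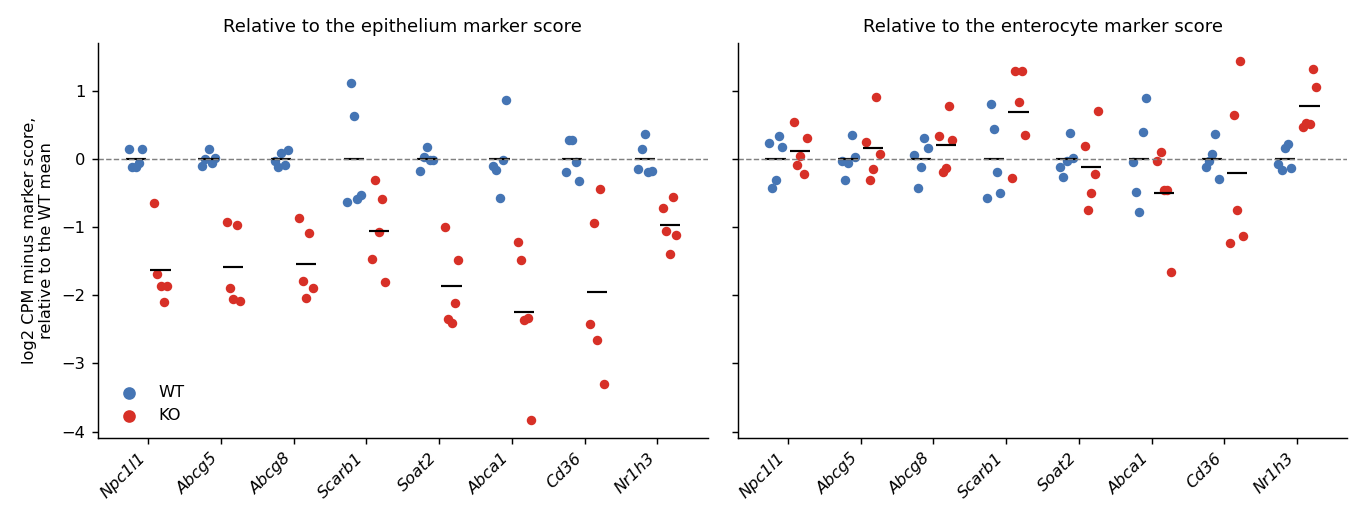
Log2 CPM of each gene minus the mean log2 CPM of epithelium markers (left) or enterocyte markers (right) in each library, shifted so that the WT mean is 0 (blue WT, red KO, bar = mean, n = 5 each). On the left the KO libraries of 7 genes lie below all WT libraries, as do 35.8% of all tested genes on that scale, and on the right the groups overlap for all but *Nr1h3*, where 74.7% of all tested genes are higher in KO without overlap.

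The fit was repeated with a tissue score for each library as a covariate. With the smooth muscle score in the model, all 8 log2 fold changes stayed negative, from -0.34 for *Scarb1* to -2.02 for *Cd36*, and none passed the threshold of edgeR's quasi-likelihood test, which then called 8 genes lower and 10 higher among all genes tested. With the epithelium score, *Scarb1* (1.15) and *Cd36* (0.38) turned to the other sign, the other 6 stayed negative from -0.34 to -2.14, and again none passed, with 2 genes lower and 10 higher in all. Neither score overlapped between the groups, so that genotype and score are largely confounded in these fits.

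**Figure D4:**
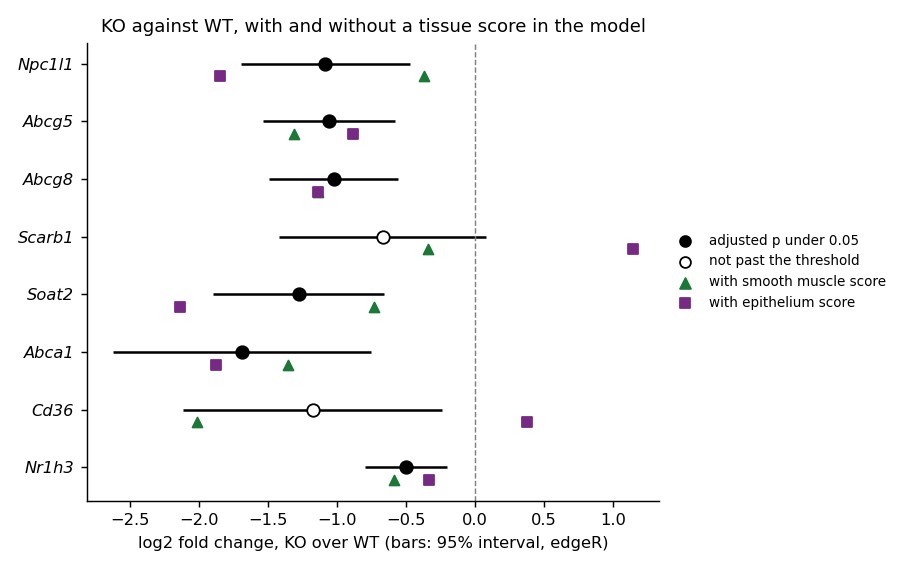
Log2 fold change of KO over WT for each gene by edgeR (circles, with 95% interval; filled where the adjusted p is under 0.05) and with a smooth muscle score (triangles) or an epithelium score (squares) added to the model, the latter 2 lying on each other for *Abcg8*. *Cd36* and *Scarb1* cross 0 with the epithelium score, and the other genes stay below 0.

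Other genes of the same pathways were counted from lists chosen with earlier results of these data known. Each count stands beside the 13.9% lower and 16.0% higher of all tested genes, with edgeR's quasi-likelihood test throughout. With a tissue score in the model, 1 gene of these lists was called (sterol synthesis, smooth muscle score). Partners and further targets of LXR were counted first, where 29.9% of all tested genes were called in either direction. Of 18 such genes 5 were higher, 1 was lower and 12 were not called, with a median log2 fold change of -0.06. *Scd2*, a stearoyl-CoA desaturase, rose from 52.3 ± 11.2 CPM in WT to 551 ± 221 CPM in KO (SD, n = 5 each; log2 fold change 3.40, adjusted p = 1.26e-04, edgeR), and *Scd1* rose with wide scatter (2.58, adjusted p = 0.0395, edgeR). *Fasn*, the fatty acid synthase, and *Apoe* were not called (1.30 and -0.31). The other called genes, named after their values were seen, were *Mylip* (1.46), which encodes an LXR-induced ubiquitin ligase, *Abcg1* (0.90), a cholesterol exporter to HDL, *Lpl* (1.84), the lipoprotein lipase, and the corepressor *Ncor1* (-0.63). The adipocyte score was 3.77 to 6.79 in KO and 2.38 to 4.96 in WT. The part of fat tissue in the values of *Scd1*, *Fasn* and *Lpl* was not tested. *Abcg1* was scarce, with 4.47 ± 1.55 CPM in WT and 8.33 ± 1.87 CPM in KO (SD, n = 5 each), and it was higher where *Abca1* was lower. The 5 higher genes became 2, with none lower, without WT replicate 1 or 2, and 3 without WT replicate 3, WT replicate 5, KO replicate 2 or KO replicate 4 or with robust dispersion, and without KO replicate 1 there were 3 lower genes.

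Genes of sterol synthesis were mostly higher in KO. Of 13 genes of cholesterol synthesis and its feedback, 10 were higher, none was lower and 3 were not called, with a median log2 fold change of 1.58. *Hmgcs1*, an early enzyme of the pathway, rose from 135 ± 15.6 to 402 ± 96.5 CPM (log2 fold change 1.58, adjusted p = 2.86e-04, edgeR). *Stard4*, a carrier of cholesterol between membranes, had 0.29 and was not called (adjusted p = 0.141, edgeR).

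The genes that carry sterols within the cell were mixed, and those of fat absorption mostly lower. Of 20 sterol trafficking genes 5 were higher, 7 were lower and 8 were not called, with a median log2 fold change of 0.01. The sterol carrier protein *Scp2* fell by 0.98 and the oxysterol binding protein *Osbp* fell by 0.53, while *Anxa2* (0.26) was not called. The 5 higher genes, named after their values were seen, were *Npc2* (0.42), *Cav1* (1.05), *Osbpl2* (0.31), *Flot1* (0.36) and *Flot2* (0.83), and only 3 genes were higher without WT replicate 1, 2, 3 or 4 or without a filter, against 8 with scaling to library size. Of 14 genes of lipid uptake and resynthesis 11 were lower and 1 was higher, with a median of -0.95. *Mttp*, which loads fat onto apolipoprotein B, fell by 2.15, *Acsl5*, an acyl-CoA synthetase, fell by 1.58 and *Apob* fell by 1.07, whereas *Fabp2* was not called (-0.24). The single higher gene, named after its value was seen, was *Agpat2* (0.32), and none was higher without WT replicate 4 or without a filter on low counts.

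Of 8 tested genes of sterol esterification and ester hydrolysis, 4 carboxylesterases were lower (*Ces2e*, *Ces2a*, *Ces2c* and *Ces1f*, from -1.76 to -0.78), none was higher and the median was -0.63. The 4 lower genes became 1 without WT replicate 2 or WT replicate 3, and 2 without KO replicate 2 or KO replicate 5. These carboxylesterases are close relatives in gene clusters, and reads may be shared among them. Of 5 tested enzymes of oxysterols and bile acids, *Cyp3a11* (-4.57) and *Cyp27a1* (-1.19), the sterol 27-hydroxylase, were lower and none was higher. Of 8 scaffolds and partners of SCARB1 and CD36, *Apoa4* fell by 4.97 and the other 7 were not called, among them *Apoa1* (-0.36), *Slc9a3r1* (-0.38) and *Pdzk1* (-0.40), the scaffold of SR-BI. Without KO replicate 1 there were 3 lower and 1 higher, and without KO replicate 5 there were 2 lower and 1 higher.

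Of 18 transcription factors of absorptive cells 4 were higher, 6 were lower and 8 were not called, with a median of -0.21. *Hnf4a* was not called (0.27, adjusted p = 0.234, edgeR), while its paralogue *Hnf4g* fell by 1.25, *Creb3l3* fell by 1.99 and *Cdx2* rose by 0.78. *Gata4* fell by 3.56 (standard error 0.95, adjusted p = 0.0177, edgeR). The other 3 higher genes, named after their values were seen, were *Srebf2* (0.90), the regulator of cholesterol synthesis, *Cdx1* (0.92) and *Nr1h4* (2.02), the bile acid receptor.

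**Figure D5:**
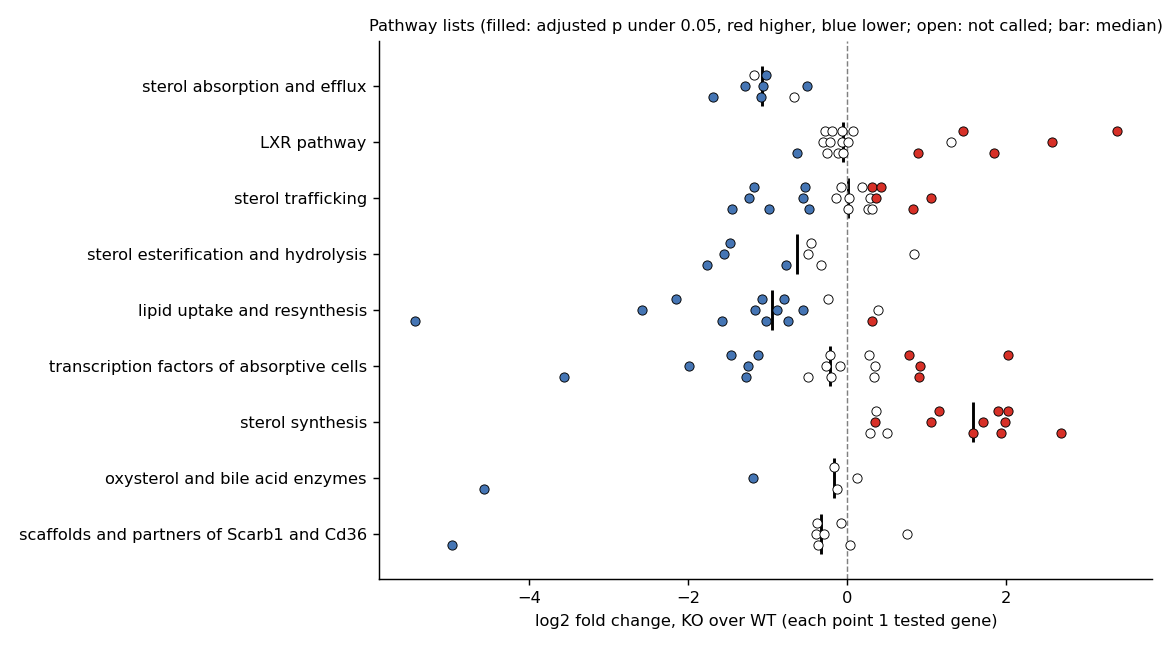
Log2 fold change of KO over WT for each tested gene of 9 lists (red = called higher, blue = called lower, open = not called, bar = median). The 8 sterol absorption and efflux genes lie at or below -0.50, with a median of -1.07, whereas 10 of 13 genes of sterol synthesis were called higher, with a median of 1.58.

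The genes whose log2 CPM was most like that of each gene over the 10 libraries were then listed, leaving out the 8 themselves. Pearson's r over libraries that share the group difference is a description only. They were *Siae* (0.988) and *Slc43a2* (0.987) for *Npc1l1*, *Gid4* (0.984) and *Bst1* (0.983) for *Abcg5*, and *Lect2* (0.984) and *Dio1* (0.978) for *Abcg8*. For *Soat2* they were *Lta4h* (0.989) and *Fam234b* (0.987), for *Nr1h3* *Ces2e* (0.988) and *Tmem86b* (0.978), and for *Abca1* *Wipf1* (0.969) and *Isl1* (0.960). The closest were less close for *Cd36*, with *Lipe* (0.945) and *Tdo2* (0.941), and for *Scarb1*, with *Akp3* (0.939) and *Pdk4* (0.937). *Tdo2*, *Isl1* and *Lect2* were scarce, at under 3 CPM in either group.

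Among the 28 pairs of the 8 genes, r with the group means removed ran from -0.58 (*Npc1l1* and *Scarb1*) to 0.96 (*Abcg5* and *Abcg8*) over 10 libraries. It was 0.76 for *Abcg5* and *Nr1h3*, 0.74 for *Npc1l1* and *Soat2* and 0.59 for *Scarb1* and *Cd36*. *Soat2* against *Cd36* had -0.57 and *Npc1l1* against *Cd36* -0.47. Some pairs were near 0, such as *Soat2* and *Abca1* (-0.01) and *Abca1* and *Nr1h3* (-0.13). Others were not, such as *Abcg8* and *Nr1h3* (0.72), *Abcg8* and *Soat2* (0.63) and *Scarb1* and *Soat2* (-0.53). With the epithelium score r was -0.85 for *Scarb1*, -0.66 for *Cd36*, 0.48 for *Npc1l1* and 0.51 for *Soat2*, and between -0.20 and 0.10 for the other 4 genes. With the adipocyte score it was 0.74 for *Cd36*, 0.16 for *Scarb1*, -0.46 for *Npc1l1* and -0.65 for *Soat2*, and between -0.10 and 0.11 for the other 4 genes. For the enterocyte score it was 0.72 for *Npc1l1*, 0.54 for *Abca1*, -0.12 for *Cd36* and 0.11 to 0.46 for the rest. The proximal score gave 0.60 for *Scarb1*, 0.46 for *Abca1*, 0.33 for *Cd36* and -0.19 to 0.20 for the rest. The macrophage score gave 0.60 for *Soat2*, 0.52 for *Npc1l1*, 0.49 for *Nr1h3* and -0.05 to 0.30 for the rest. The part of these tissues in the values was not tested. All of the 8 genes but *Scarb1* had a larger SD relative to the mean in KO than in WT, so the KO libraries weigh more in most of these r.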

How the data were processed

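RNA-seq of proximal small intestine was available for 5 WT and 5 KO mice. For each library the authors deposited a table of raw read counts by Ensembl gene ID, with no normalization. The submitters' processing notes name GRCm38, FastQC 0.11.9, Trimmomatic, HISAT2 2.0.4, SAMtools 1.3.1 and DESeq2 1.14.1. How reads were counted (tool, annotation, strand) is not given in the sources used here, so reads of overlapping genes may go to either.

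Gene IDs were named by GENCODE M21 (GRCm38), which gave symbols for 34490 of 35275, and lengths are union exon lengths. Promoters are from RefSeq (GRCm38.p6). All 10 libraries were fitted with genotype alone in edgeR 4.0.16 (R 4.3.3), using TMM factors and filterByExpr (minimum count 10, total 15), which kept 15610 genes. The quasi-likelihood test was adjusted by Benjamini-Hochberg over all of them at a threshold of 0.05. Log2 CPM has a prior count of 2. Ratios and marker-relative levels were compared by exact permutation over all 252 splits into 5 and 5. Counts of the 8 genes were between 166 and 36845 per library, and intervals are those of the model. No 2 libraries of a group were alike within sampling noise. The pipeline was tested on simulated data.

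The 8 genes and all lists were chosen with earlier results of these data known, and 3 genes of the sterol synthesis list are not reported here. Named genes are the 8, *Slc39a14*, both genes of each ratio, the 4 most abundant of each list at most, and the 2 most like each of the 8, while others are marked in the text as named after their values were seen. Alternatives were RLE or library size scaling, DESeq2 1.42.0, other filters, robust dispersion, a prior count of 0.5, tissue scores as covariates, a replicate block, coding length and leaving out each mouse.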

Additional observations from a re-analysis of the deposited data

Results flagged for a closer look

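Of 46 groups of 5 libraries examined for a single library far from the other 4, chance alone would mark about 1 in 20, and 4 were marked, all of them in KO and all involving *Npc1l1*. The groups share genes and libraries and are not independent, so the 4 marks cannot be set against that rate. Those of KO replicate 1 are the same gene with and without the epithelium scale, and those of KO replicate 4 are ratios to partner genes. KO replicate 1 had 1402 CPM of *Npc1l1*, where the other KO libraries had 457.4 to 696.8 CPM. Relative to the epithelium markers, the log2 level of *Npc1l1* was 0.41 in KO replicate 1 and -1.05 to -0.64 in the others. KO replicate 1 also had the highest *Slc39a14* of the KO libraries (160.1 CPM) and the highest enterocyte score (10.67, against 9.81 to 10.18). The log2 ratio of *Npc1l1* to *Abcg5* was 1.25 in KO replicate 4 and 2.56 to 2.67 in the others, and that of *Npc1l1* to *Abcg8* was 1.43 against 2.47 to 2.65. KO replicate 4 had the highest smooth muscle score (9.47) and the highest adipocyte score (6.79) of the 10 libraries. The part of these scores in the marked values was not tested.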

How the results depend on the processing

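The count of 6 genes lower in KO was 6 with RLE factors, library size alone, no filter, a minimum mean count of 10, robust dispersion or the replicate block, 7 with DESeq2, 6 to 7 with 1 mouse left out and 0 with either tissue score. Over all genes, 2491 were higher and 2169 lower. Scaling to library size gave 3608 and 1589, and moved the median log2 fold change of all genes from 0.03 to 0.15. The smooth muscle score left 10 and 8, the epithelium score 10 and 2, and leaving out a mouse 1634 (without WT replicate 2) to 2944 higher and 1573 to 2563 lower.

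With the smooth muscle score the log2 fold changes that lost the threshold were -0.37 (*Npc1l1*), -1.32 (*Abcg5*), -1.14 (*Abcg8*), -0.73 (*Soat2*), -1.36 (*Abca1*) and -0.59 (*Nr1h3*). With the epithelium score they were -1.85, -0.89, -1.14, -2.14, -1.88 and -0.34, while *Scarb1* (1.15) and *Cd36* (0.38) changed sign. The scores do not overlap between the groups. *Cd36* passed the threshold with DESeq2 (-1.20, adjusted p = 0.0127) and ranged from -1.62 to -0.96 with 1 mouse left out. Relative to enterocyte in place of epithelium markers, *Npc1l1* (0.12), *Abcg5* (0.16), *Abcg8* (0.21), *Scarb1* (0.70) and *Nr1h3* (0.78) changed sign, and *Soat2* (-0.12), *Abca1* (-0.50) and *Cd36* (-0.20) moved towards 0, since this change of markers moved every gene by 1.75. The difference in the *Npc1l1*/*Abcg5* ratio ranged from -0.13 to 0.23 with 1 mouse left out, changing sign without WT replicate 1 (0.02) or KO replicate 4, and that in *Npc1l1*/*Abcg8* from -0.17 to 0.13, changing sign without KO replicate 4. With coding in place of exon length, 1 step between neighbours in KO and 5 in WT were without overlap, in place of 3 and 7. The cause of the other changes was not tested.

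Replicate numbers did not pair the mice: the deviations of same-numbered libraries had an r of -0.17 to 0.18, over 0.1 in 1 of 5 pairs, and 2 of 10 libraries correlated best with their own number. With the replicate block, *Cd36* passed the threshold (-1.51, adjusted p = 0.0239, edgeR) and *Nr1h3* missed it (-0.52, adjusted p = 0.0525, edgeR), and no gene of lipid uptake and resynthesis was higher. The paired exact sign-flip test, which cannot go below 0.0625, gave that p for the epithelium-relative differences of *Npc1l1* (-1.63), *Abcg5* (-1.59), *Abcg8* (-1.54), *Soat2* (-1.87), *Abca1* (-2.25), *Cd36* (-1.95) and *Nr1h3* (-0.97).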
